A study of Mus musculus with 12 samples.

Results

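The comparison described here is that of C13, a compound that the submitters call an inhibitor of the kinase MOK and that is known here only by its code name, with its solvent DMSO in microglial cells that had received a sham preparation in place of TDP-43 aggregates. It covers 6 of the 12 libraries of the series, namely the 3 labelled C13 with the sham preparation and the 3 labelled DMSO with the sham preparation. The cells were SIM-A9, a microglial line from C57BL/6 mice, and all agents were added in serum-free medium. Cells of both groups received 10 µM polymyxin B, a peptide that binds endotoxin, for 1 h, then 10 µM C13 or DMSO for 1 h, then the sham preparation at a stated 5 µg/mL. The sham preparation was present for 2.5 h before 100 µM 4-thiouridine was added, the 4-thiouridine for 90 min, and RNA was taken at 4 h in total. The other 6 libraries received TDP-43 aggregates in place of the sham preparation and enter below only where the response to C13 is set beside that of the sham cells. There was 1 cell line, 1 dose of C13 and no group without polymyxin B, so nothing here describes cells free of these agents. The labels call the samples biological replicates without saying whether they shared a day or a flask, so p-values measure only the spread between these samples.

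MOK is a serine/threonine kinase of the MAP kinase superfamily. In microglia it has been linked to expression of inflammatory and interferon-stimulated genes. Type I interferons signal through a complex of transcription factors that includes IRF9 and binds interferon-stimulated response elements in the promoters of antiviral genes. SLAM-seq labels new RNA with 4-thiouridine, whose alkylation leaves T-to-C changes in the reads. The table of nascent RNA counts reads with such changes, and the table of total RNA counts all reads of the same library, so the nascent reads are a small part of the total. A 3′ mRNA kit was used, so each read stands for the end of a polyadenylated transcript.

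The depth of the libraries differed between the groups. Total reads ran from 17436397 to 41779882 in the C13 libraries and from 32105684 to 38318656 in the DMSO libraries. Nascent reads ran from 558608 to 786491 with C13 and from 1050971 to 2722812 with DMSO, with no overlap. Reads in nascent RNA made up 3.20%, 2.85% and 1.88% of the total reads in the C13 libraries and 3.4%, 7.11% and 2.74% in the DMSO libraries. The mean share was 2.64% ± 0.683 (SD, n = 3) with C13 and 4.42% ± 2.35 (SD, n = 3) with DMSO, a difference of -1.77 percentage points that did not exceed the spread of the libraries (exact permutation test, two-sided, p = 0.3, where 3 against 3 cannot give less than 0.1). Without DMSO sham replicate 2 the difference was -0.430 points. In bulk samples fewer labelled cells and less new RNA per cell cannot be told apart. Mitochondrial ribosomal RNA took 1.80%, 2.37% and 3.70% of total reads with C13 and 1.17%, 1.49% and 1.31% with DMSO, so every C13 library lay above every DMSO library. At least 1 total read was found for 11718, 11940 and 11449 genes with C13 and for 13040, 13290 and 12260 genes with DMSO.

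C13 sham replicate 3 stood apart from the other libraries. On the first principal component of total RNA, which held 16.2% of the variance, it lay at 93.3 and a single DMSO library of the TDP-43 arm, replicate 3, at 91.7, while the remaining 10 libraries lay between -31.0 and -1.73. On the second component, which held 14.5%, these 2 libraries lay at opposite ends, at -88.7 and 95.2. It also had the highest share of mitochondrial ribosomal RNA and the lowest share of nascent reads of the 6. Values without it are given beside the differences of single genes that it moved by over 1.5 times, and beside many list medians. Some medians near 0 changed sign without it. Its part in these values was tested only in that way.

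**Figure D1:**
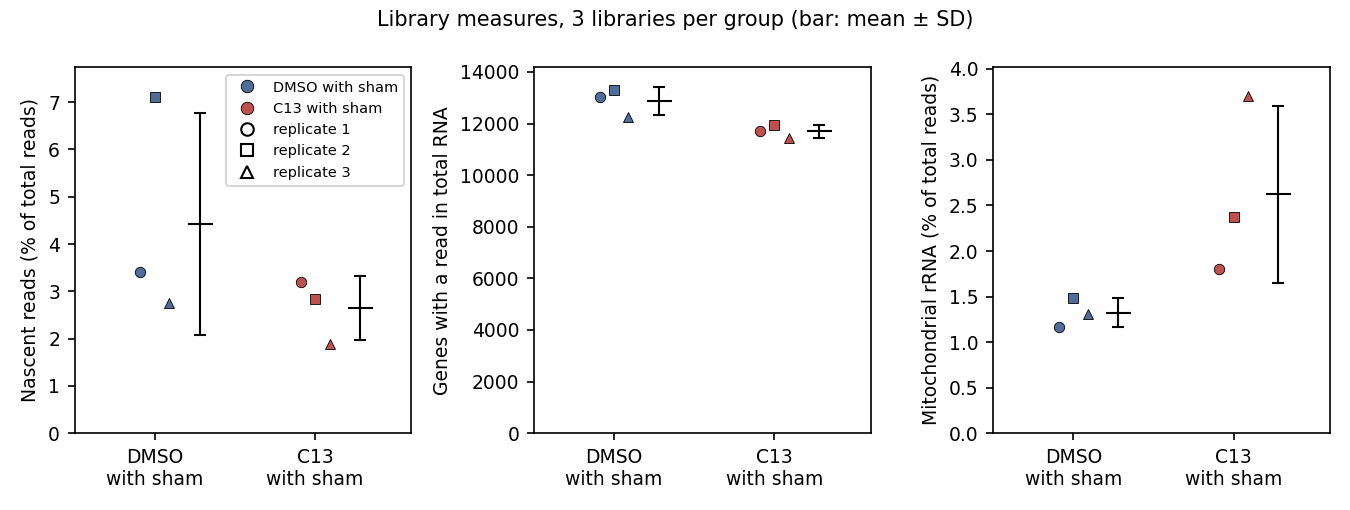
Library measures of the 6 sham libraries, with 1 point for each library and the group mean beside them. The horizontal axis gives the group and the vertical axes the nascent reads as a percent of total reads, the number of genes with a total read and the percent of mitochondrial ribosomal RNA, and the error bars are the SD. C13 libraries lie below all DMSO libraries in genes detected, and above them in the share of mitochondrial ribosomal RNA (1.80% to 3.70% against 1.17% to 1.49%), while the nascent share overlaps.

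The gene of the kinase itself was barely measured. Mok had 0, 212 and 42 total reads in the C13 libraries and 44, 6 and 132 in the DMSO libraries, which is 0, 10.7 and 0.965 counts per 1000000 reads (CPM) against 1.39, 0.162 and 3.42 CPM. The groups overlapped, and the log2 difference of 1.22 (SE 1.46) did not pass the test (edgeR adjusted p = 0.987). It rested on C13 sham replicate 2, without which it was -1.72. No nascent Mok read was found in any of the 6 libraries. An inhibitor need not alter the transcript of its target, so these values check neither the labels nor the action of C13.

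Over all genes, no difference between C13 and DMSO passed the test. In total RNA 0 of 11827 tested genes had an adjusted p under 0.05 in edgeR's quasi-likelihood test with Benjamini-Hochberg adjustment (0% called, smallest adjusted p 0.632), and 722 genes (6.1%) had an unadjusted p under 0.05, of which 243 (2.05%) were higher and 479 (4.05%) lower with C13. In nascent RNA 0 of 7078 tested genes passed (0% called, smallest adjusted p 0.293), and 488 genes (6.89%) had an unadjusted p under 0.05, with 175 (2.47%) higher and 313 (4.42%) lower. DESeq2 on the same counts called 41 genes in total RNA and 29 in nascent RNA. Several genes described below were among them. In total RNA these were Hspa4, Ube2m, Prpf19, Bbs9, Fmn1, Srgn, Arl4a, Slc37a2, Fgf11, mt-Rnr1 and Mir6240. In nascent RNA they were Lrrc40, Sypl, Yif1a, Klhdc3, Vps25, Map4, Zfp638, Derl2 and Gm16286. Without C13 sham replicate 1 the edgeR test called 2 genes in total RNA, Parp6 and Brd9, which are named for that reason alone. Because no gene passed the main test, the genes below are described by whether their 3 C13 libraries lay apart from their 3 DMSO libraries. In total RNA this held for 522 genes above (4.41%) and 676 genes below (5.72%), and in nascent RNA for 363 above (5.13%) and 647 below (9.14%). With C13 sham replicate 3 left out, 2 libraries against 3 lay apart for 1148 genes above and 1407 below in total RNA and for 702 above and 1090 below in nascent RNA. The median log2 difference over all tested genes was -0.0075 in total RNA and -0.044 in nascent RNA, and -0.03 and -0.21 without C13 sham replicate 3. These shares are the background for each list below, and a share of a list near them is no result about its members. All differences below are log2 of C13 over DMSO, with CPM scaled within each table.

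Hspa4, Ube2m and Prpf19 were among the genes whose C13 libraries all lay below the DMSO libraries in total RNA. Hspa4 (chr11:53259814-53300457, minus strand, on GRCm38 as for all positions below), a chaperone of the Hsp110 family that serves as nucleotide exchange factor for Hsp70, had 139, 104 and 111 CPM with C13 and 324, 158 and 404 CPM with DMSO. Every C13 value lay under every DMSO value, with a log2 difference of -1.32 (SE 0.31). Ube2m (chr7:13035120-13038275, minus strand), the enzyme that passes the ubiquitin-like protein NEDD8 to cullins, had 45.0, 58.5 and 63.1 CPM against 137, 101 and 157 CPM. This separation, -1.25 (SE 0.25), was the difference with the smallest p in total RNA. Prpf19 (chr19:10895231-10909559, plus strand), a ubiquitin ligase at the core of a spliceosome complex, had 376, 281 and 367 CPM against 933, 451 and 816 CPM, a difference of -1.10 (SE 0.25). The means were 118 ± 18.3 against 295 ± 125 CPM for Hspa4, 55.5 ± 9.37 against 132 ± 28.2 for Ube2m and 341 ± 52.9 against 733 ± 251 for Prpf19 (SD, n = 3). None of these 3 differences passed the test (edgeR adjusted p = 0.632). DESeq2 called all 3 (DESeq2 adjusted p = 0.011 for Hspa4, 0.0013 for Ube2m and 0.0081 for Prpf19), as did edgeR without its filter on low counts. These calls used the counts by which the genes were picked, so they are no separate evidence.

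Bbs9, Fmn1, Srgn and Arl4a also lay below in total RNA. Bbs9, a subunit of the BBSome that carries proteins to cilia, had 20.6, 11.3 and 39.2 CPM with C13 and 86.4, 87.1 and 95.7 CPM with DMSO, a difference of -1.92 (SE 0.42). Fmn1, a formin that nucleates actin filaments, had 0.462, 0.655 and 1.65 CPM against 16.1, 6.93 and 9.14 CPM, a difference of -3.50 (SE 0.74) at a low level, and -4.24 without C13 sham replicate 3. Bbs9 and Fmn1 overlap other annotated genes on the opposite strand, and the strand used for counting is not stated, so reads of such partners cannot be told apart. Srgn, the core protein of the proteoglycan serglycin in secretory granules, had 80.8, 57.2 and 68.8 CPM against 134, 125 and 156 CPM, with -1.0 (SE 0.21). Arl4a, a small GTPase related to ARF proteins, had 0 reads in all 3 C13 libraries against 2.34, 0.920 and 0.362 CPM with DMSO. The DMSO mean of Arl4a was 32.5 times a floor of 3 reads over the C13 group. Of the genes tested in total RNA, 241 were at 0 in every C13 library and 51 in every DMSO library. This moves with the fewer genes detected in the C13 libraries.

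Slc37a2, Yif1a, Pard6a and Fgf11 lay above with C13 in total RNA. Slc37a2, a sugar-phosphate exchanger of the endoplasmic reticulum that is abundant in macrophages, had 42.3, 55.6 and 44.4 CPM with C13 and 18.6, 22.1 and 27.1 CPM with DMSO, a difference of 1.07 (SE 0.27). Its nascent reads lay apart in the same direction, with 87.9, 28.3 and 7.94 CPM against 6.60, 0.676 and 1.84 CPM. Yif1a, which takes part in transport between the endoplasmic reticulum and the Golgi, had 50.2, 44.6 and 58.6 CPM against 22.3, 33.6 and 23.1 CPM in total RNA. In nascent RNA Yif1a had 270.5, 92.0 and 377 CPM against 3.30, 52.7 and 7.37 CPM, so it too was higher in every C13 library of both tables. Pard6a, a scaffold of cell polarity, had 60.6, 72.5 and 57.9 CPM against 18.5, 34.9 and 37.5 CPM, with 1.07 (SE 0.28). Fgf11 encodes an FGF-like protein that stays inside the cell, and its tables went opposite ways. Its total level was 30.0, 37.5 and 45.2 CPM with C13 against 19.7, 20.1 and 17.1 CPM, and its nascent level 0, 3.54 and 7.94 CPM against 39.6, 8.79 and 16.6 CPM. The difference for Fgf11 was 0.99 (SE 0.26) in total RNA and -2.48 (SE 1.70) in nascent RNA, the latter -3.63 without C13 sham replicate 3.

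Both mitochondrial ribosomal RNAs were higher with C13 in total RNA. The 12S RNA mt-Rnr1 had 4974, 10349.5 and 13584 CPM against 2639, 4944 and 4882 CPM, a difference of 1.21 (SE 0.33). The 16S RNA mt-Rnr2 had 13184, 14113 and 21921 CPM against 9240.2, 10484 and 8111 CPM, a difference of 0.82 (SE 0.22) (edgeR adjusted p = 0.632 for both). The highest values of both were those of C13 sham replicate 3, and without it the differences were 0.90 and 0.57. In contrast, the nuclear-encoded subunits of the respiratory chain had a median difference of 0.033 over 48 tested genes. Without C13 sham replicate 3 this median was 0.19. Without overlap 1 subunit gene lay above (Atp5o) and 3 lay below (Ndufb3, Ndufs3 and Sdhc). These are 2.08% and 6.25%, against 4.41% and 5.72% of all genes. In the TDP-43 arm the difference was -0.68 (SE 0.33) for mt-Rnr1 and -0.58 (SE 0.22) for mt-Rnr2. Mir6240, a short annotated locus, had 2.37, 10.2 and 10.00 CPM against 0.348, 0.731 and 1.14 CPM. A polyadenylation-primed kit does not count mature microRNAs, so this value is that of reads at the locus.

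**Figure D2:**
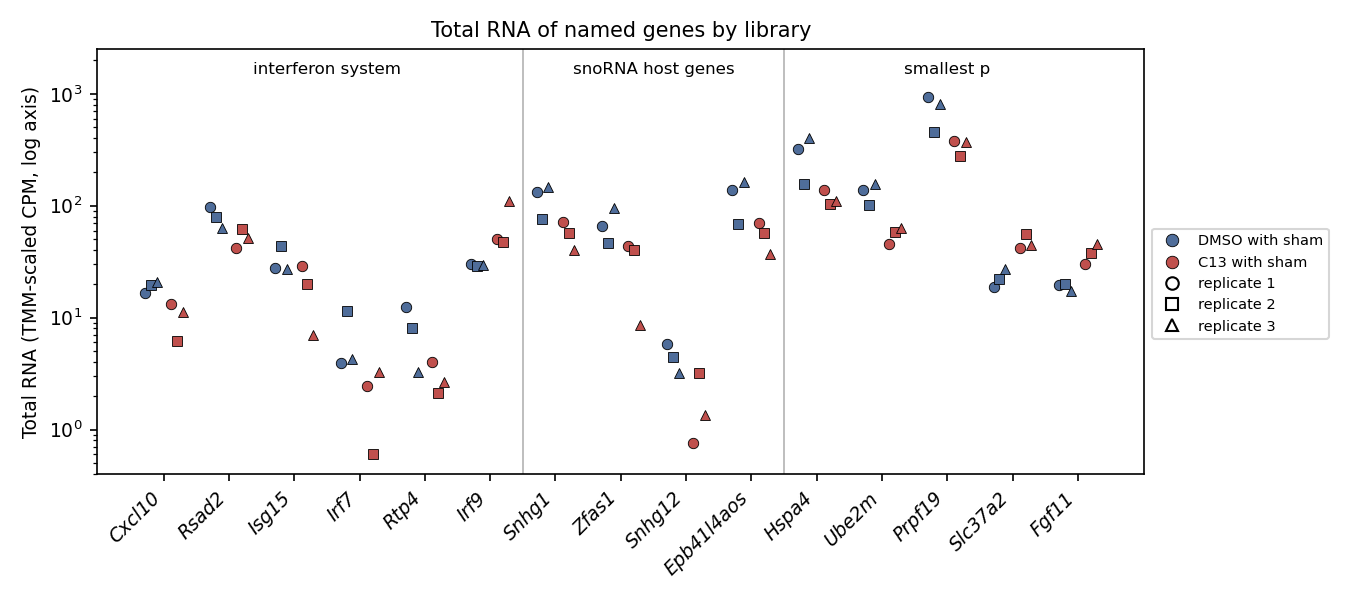
Total RNA of named genes of the interferon system, of host genes of small nucleolar RNAs and of genes with the smallest p, as CPM on a log axis, with 1 point for each of the 3 C13 and 3 DMSO sham libraries. C13 points lie under all DMSO points for Hspa4, Ube2m, Prpf19, Cxcl10, Rsad2, Irf7, Snhg1, Zfas1 and Snhg12, above them for Irf9, Slc37a2 and Fgf11, and overlap them for Isg15, Rtp4 and Epb41l4aos.

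Prpf19, Hspa4, Ube2m and Bbs9 had differences of opposite sign in sham cells and in cells given TDP-43 aggregates. The 2 comparisons share no library. Prpf19 had -1.10 (SE 0.25) in sham cells and 1.14 (SE 0.25) with TDP-43, where all 3 C13 libraries lay above all 3 DMSO libraries. The test of this difference between the arms gave an unadjusted p of 1.19e-05 and an adjusted p of 0.0741 in edgeR, the smallest of all genes. Hspa4, at -1.32 (SE 0.31) in sham cells, was at 0.81 (SE 0.30) with TDP-43 aggregates (edgeR adjusted p of the difference 0.132). For Ube2m the values were -1.25 (SE 0.25) and 0.75 (SE 0.24) (edgeR adjusted p 0.114), and for Bbs9 -1.92 (SE 0.42) and 1.2 (SE 0.41) (edgeR adjusted p 0.132). Of the 676 genes whose C13 libraries all lay below in sham cells, 89 (13.2%) lay all above with TDP-43, against 6.97% of all tested genes, and 28 (4.14%) lay all below, against 6.48%. Of the 522 genes all above in sham cells, 57 (10.9%) lay all below with TDP-43 and 19 (3.64%) all above. In nascent RNA, of the 647 genes all below in sham cells 34 (5.26%) lay all above and 32 (4.95%) all below with TDP-43, against 6.02% and 4.34% of all tested genes. These shares are descriptions over genes, which are not independent. Of the 2 libraries that stood apart, 1 is a C13 library of the sham arm and 1 a DMSO library of the TDP-43 arm. Their part in these shares was not tested. For C13 against DMSO within the TDP-43 arm no gene passed the test either, and 5.98% of genes in total and 4.59% in nascent RNA had an unadjusted p under 0.05. No gene passed the test of the difference between arms in either table (0% called), while 941 genes in total RNA (7.96%) and 537 in nascent RNA (7.59%) had an unadjusted p under 0.05. DESeq2 called 108 and 48 genes for that difference. In edgeR it was called for 3 genes in total RNA without DMSO sham replicate 2, for 1 without C13 sham replicate 3, and for 1 in nascent RNA without C13 sham replicate 1.

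**Figure D3:**
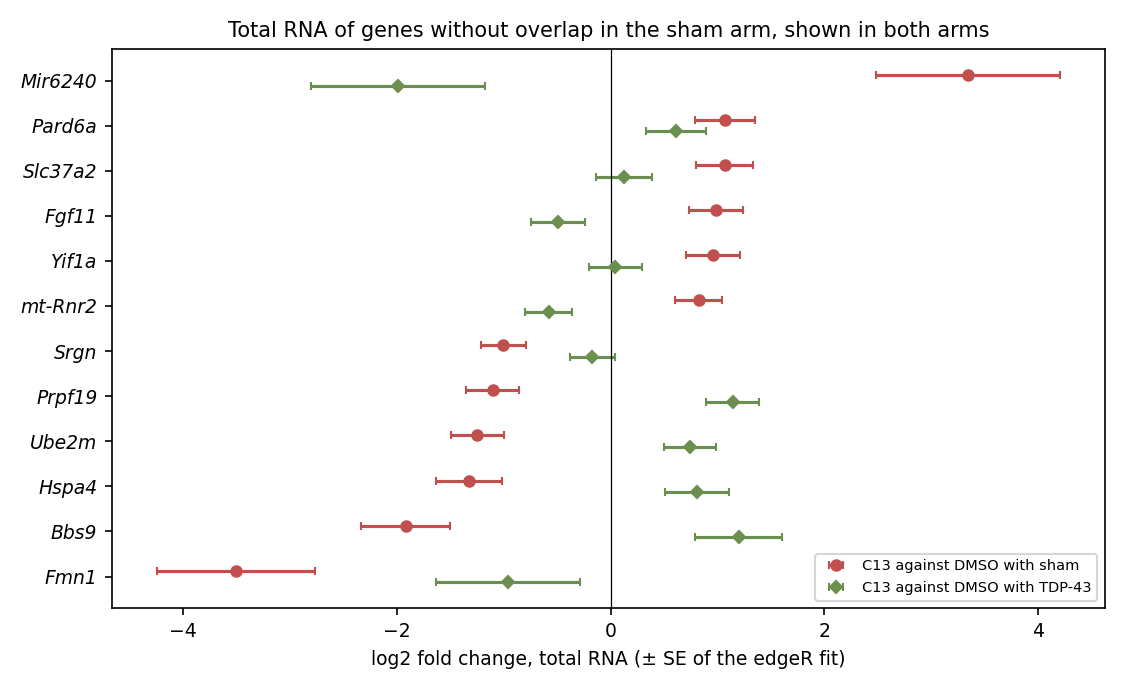
Log2 difference of C13 over DMSO in total RNA (horizontal, with its SE) of 12 genes without overlap in the sham arm, for the sham and the TDP-43 arm. Prpf19, Hspa4, Ube2m and Bbs9 lie below 0 in the sham arm and above 0 in the TDP-43 arm, and mt-Rnr2, Fgf11 and Mir6240 the other way round.

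In nascent RNA Lrrc40, Sypl, Mpc2, Rnf157, Lig1 and Ccnd3 lay above with C13, on far fewer reads than in total RNA. Lrrc40, a leucine-rich repeat protein, had 341, 419 and 472 nascent CPM with C13 and 39.6, 75.4 and 10.1 with DMSO, a difference of 3.29 (SE 0.89). Sypl, a synaptophysin-like vesicle protein, had 179, 365 and 375 CPM against 11.5, 55.1 and 27.6 CPM, a difference of 3.27 (SE 0.90). Mpc2, a subunit of the mitochondrial pyruvate carrier, had 287, 226 and 667 CPM against 23.9, 67.3 and 9.21 CPM. Rnf157, a ubiquitin ligase, had 490.3, 676 and 258 CPM against 130.3, 94.7 and 164 CPM, and the replicative DNA ligase Lig1 had 1694, 2798 and 4190.1 CPM against 1012, 1287 and 1108 CPM. Ccnd3, the gene of cyclin D3 that drives entry into S phase, was higher in every C13 library of both tables. Its nascent level was 1158, 1769 and 4632 CPM against 1023, 519 and 737 CPM, and its total level 1017, 964 and 1116 CPM against 702, 667 and 815 CPM. The difference for Ccnd3 was 1.73 (SE 0.51) in nascent and 0.50 (SE 0.16) in total RNA, and -0.22 (SE 0.50) and -0.055 (SE 0.16) in the TDP-43 arm. The highest nascent value of Ccnd3 was that of C13 sham replicate 3, and without it the nascent difference was 0.86.

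Several genes with clear nascent signal in DMSO had none or almost none with C13. Among all genes tested in nascent RNA, 123 were at 0 in every C13 library and 6 in every DMSO library. The C13 libraries held fewer nascent reads, and the part of depth in the losses below was not tested. Klhdc3 (chr17:46674550-46680914, minus strand), a substrate receptor of a cullin 2 ubiquitin ligase, had no nascent read in any C13 library and 39.6, 25.0 and 118 CPM with DMSO. Its DMSO mean was 33.7 times the floor of 3 reads. Vps25, a subunit of the ESCRT-II complex of endosomal sorting, likewise had no nascent read with C13 and 50.3, 9.47 and 124 CPM with DMSO. Its DMSO mean was 34.0 times that floor, and its lowest DMSO value lay far nearer to the floor. Total RNA of Vps25 overlapped, with 118, 74.3 and 51.9 CPM against 107, 75.1 and 110.3 CPM. Map4, a microtubule-binding protein, had 72.7, 44.2 and 9.92 nascent CPM against 467, 292 and 379 CPM, a difference of -3.16 (SE 0.70). Zfp638, a zinc finger protein that binds RNA, had 0, 7.08 and 0 CPM against 46.2, 129.8 and 261 CPM. Derl2, which takes part in degradation of proteins of the endoplasmic reticulum, had 0, 3.54 and 1.98 CPM against 91.5, 69.7 and 201 CPM. Gm16286 had 50.7, 53.1 and 29.8 CPM against 503, 382 and 456 CPM in nascent RNA and 110.3, 113 and 151 CPM against 159, 279 and 248 CPM in total RNA, below in every library of both. None of these passed the test (edgeR adjusted p = 0.293 to 0.672). All 6 overlap other annotated genes, as do Lrrc40, Mpc2, Rnf157, Lig1, Ccnd3, Slc37a2 and Yif1a, and the reads of such partners cannot be told apart without the strand of counting.

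Most genes that lay apart in 1 table did not lie apart in the other. Of the 7078 genes tested in both, 363 lay above in nascent and 362 in total RNA, with 33 above in both. Below lay 647 in nascent and 360 in total RNA, with 62 below in both. In opposite directions lay 5 genes above in nascent and below in total RNA, and 22 the other way round. Since nascent reads are part of the total reads of the same library, these counts are not independent. A test of nascent reads against all other reads of the same gene called 0 genes (0% called, 368 genes or 5.2% at an unadjusted p under 0.05, edgeR smallest adjusted p 0.534). Grouped by their nascent share in the TDP-43 libraries, 5 groups of genes of equal size had median nascent differences of -0.33, -0.10, -0.03, 0.01 and 0.21 from the lowest to the highest share. Their total medians lay between -0.02 and 0.03.

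In total RNA 24 of 38 tested interferon-stimulated genes were below 0, beside 6004 of 11827 over all genes. In nascent RNA 12 of 20 were below 0, beside 3655 of 7078 over all genes. The list holds 44 genes, and its median in total RNA was -0.15 beside -0.0075 over all genes. Without overlap, 2 genes lay above (Ifi35 and Irf9) and 5 lay below (Cxcl10, Ifit3b, Irf7, Irgm1 and Rsad2), which is 5.26% and 13.2%, against 4.41% and 5.72% of all genes. In nascent RNA the median was -0.59, with none above and 5 below (25.0%, against 9.14% of all genes), among them Irf7, Rtp4, Tor3a and Xaf1. Ifi35, Ifit3b, Irgm1, Tor3a and Xaf1 are named for their place in these counts, after their values were seen, and Ifit3b has near-identical neighbours that could share its reads. The nascent median moved with single libraries and with genes with no read with C13, such as Irf7. It was -0.26 over the genes read in both groups and -0.016 without DMSO sham replicate 3, where the median of all genes was -0.075. Without C13 sham replicate 2 or 3 it was -1.03 and -1.01. The total median ran from -0.45 to -0.076 with each library left out in turn. In the TDP-43 arm the medians were 0.22 and -0.0053. The list was chosen with these data known, so its direction is not independent evidence.

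The promoters of Cxcl10, Rsad2 and Isg15 are shown because they hold the sequence GAAANNGAAA, the core of the interferon-stimulated response element, within 250 bases before the start site. Each run ends at the last base before the annotated start and is given on the strand of the gene, with the matches in capitals (RefSeq, GRCm38.p6). The match in Rsad2 is on the opposite strand and therefore reads as its reverse complement. In this order they lie at chr5:92348890-92349139, chr12:26456453-26456702 and chr4:156200819-156201068, all on the minus strand.
Cxcl10: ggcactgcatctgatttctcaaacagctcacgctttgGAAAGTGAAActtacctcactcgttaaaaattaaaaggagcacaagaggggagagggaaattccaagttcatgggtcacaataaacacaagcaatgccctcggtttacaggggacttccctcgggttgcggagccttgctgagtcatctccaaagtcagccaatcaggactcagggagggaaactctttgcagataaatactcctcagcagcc
Rsad2: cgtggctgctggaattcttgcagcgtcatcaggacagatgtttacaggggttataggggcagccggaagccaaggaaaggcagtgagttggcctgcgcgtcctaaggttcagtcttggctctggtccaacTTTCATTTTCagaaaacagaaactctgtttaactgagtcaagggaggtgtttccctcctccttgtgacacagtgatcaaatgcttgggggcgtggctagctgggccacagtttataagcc
Isg15: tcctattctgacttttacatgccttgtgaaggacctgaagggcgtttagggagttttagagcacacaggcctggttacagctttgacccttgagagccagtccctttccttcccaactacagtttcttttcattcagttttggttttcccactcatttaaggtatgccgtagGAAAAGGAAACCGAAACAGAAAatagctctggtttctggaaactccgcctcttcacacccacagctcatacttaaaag
The match starts 213 bases before the start in Cxcl10 and 120 bases before it in Rsad2, and Isg15 holds 3 overlapping matches at 78, 72 and 66 bases. Searched on both strands, the motif was found in 16 of 31 interferon-stimulated genes with a promoter in the table (51.6%) and in 288 of 8864 tested genes (3.25%). No match lies in the same window of Irf7 or Irf9. A match describes the letters only and is not a measured binding site.

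The 3 genes with these promoters were lower on average with C13 in total RNA. They are a chosen part of the 16 interferon-stimulated genes with the motif. Levels of those 16 as a set were not compared, so a link of the motif to lower levels was not tested. Cxcl10, a chemokine that draws T cells, had 13.3, 6.15 and 11.1 CPM with C13 against 16.7, 19.6 and 20.7 CPM with DMSO. The groups did not overlap and the difference was -0.90 (SE 0.40). Rsad2, the antiviral enzyme viperin, had 41.8, 61.3 and 51.9 CPM against 96.8, 78.6 and 63.1 CPM, again without overlap, with -0.62 (SE 0.26). Isg15, a ubiquitin-like protein that is attached to other proteins in the antiviral response, had 29.2, 20.1 and 7.03 CPM against 27.9, 43.9 and 27.2 CPM, where C13 sham replicate 1 lay within the DMSO range. Its difference was -0.82 (SE 0.43), and 0.81 (SE 0.43) in the TDP-43 arm. For Isg15 the lowest value was that of C13 sham replicate 3, and without that library the difference was -0.42. None passed the test (edgeR adjusted p = 0.801 to 0.847). In nascent RNA the groups overlapped for all 3, and Rsad2 had 254, 480 and 462 CPM against 434, 143 and 388 CPM.

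The transcription factors of the pathway went different ways. Irf7, the factor that amplifies interferon production, had 2.43, 0.604 and 3.24 CPM in total RNA against 3.90, 11.5 and 4.27 CPM. It had no nascent read with C13 against 7.42, 63.9 and 13.8 CPM with DMSO, whose mean was 15.7 times the floor and rested mostly on DMSO sham replicate 2. Rtp4, an interferon-induced chaperone of receptors, had 4.04, 2.12 and 2.67 CPM against 12.4, 8.01 and 3.26 CPM. Irf9, the DNA-binding subunit of the interferon-activated complex, was instead higher, with 50.1, 47.1 and 110.1 CPM against 30.3, 29.0 and 29.7 CPM and a difference of 1.22 (SE 0.35). The largest Irf9 value was that of C13 sham replicate 3, and without it the difference was 0.72. Cxcl10, Irf7, Irf9 and Rtp4 overlap other annotated genes, whose reads may be among theirs. Ifnb1, the gene of interferon beta, had no read in either table.

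Inflammatory cytokines lay apart in 1 gene. Of 27 listed cytokines, chemokines and enzymes, 21 were tested in total RNA, 8 of them above 0, where 49.2% of all genes were above 0. Their median was -0.26 (-0.07 without C13 sham replicate 3). None lay above and 1 lay below (4.76%, against 5.72% of all genes), the chemokine Ccl9, with 10.7, 6.35 and 9.01 CPM against 11.3, 18.1 and 16.0 CPM and a difference of -0.80 (SE 0.33). Tnf had 38.2, 69.0 and 41.2 CPM against 68.5, 55.8 and 73.4 CPM in total RNA, where C13 sham replicate 2 lay inside the DMSO range, and the difference was -0.41 (SE 0.25). In the TDP-43 arm the Tnf difference was 0.46 (SE 0.25), with all 3 C13 libraries above. In nascent RNA Tnf had 624, 1626 and 1672 CPM against 1228, 379.7 and 1762 CPM, which overlapped widely. Of the list 11 genes were tested in nascent RNA, with 7 above 0 (48.3% over all genes), none apart and a median of 0.22. Without C13 sham replicate 3 that median was -0.10. Il1b had 23.8, 54.1 and 32.2 total CPM against 45.4, 35.4 and 52.6 CPM, and Cxcl2, a chemokine for neutrophils, had 68.9, 46.8 and 69.2 CPM against 78.0, 58.0 and 92.7 CPM, both overlapping. Ccl4 overlapped too, with 26.8, 13.1 and 30.8 total CPM against 19.4, 21.7 and 19.5 CPM. Nos2, the inducible nitric oxide synthase, was low, at 3.29, 0.353 and 4.18 CPM against 1.96, 6.28 and 7.82 CPM. Il6 had 3 total reads in a single DMSO library and none elsewhere, so it was not measurable at this depth.

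Of 20 genes for NF-kB subunits and their feedback inhibitors, all tested in both tables, 2 lay below in total RNA (10.0%, against 5.72% of all genes) and 1 in nascent RNA (5.00%, against 9.14%), with none above. The medians were -0.053 and -0.20, and ran from -0.093 to 0.0079 and -0.75 to 0.02 with each library left out in turn. Ikbke, a kinase that activates interferon regulatory factors, had 131, 164 and 70.4 total CPM with C13 against 215, 174 and 165 CPM. Traf1, an adaptor of TNF receptors, had 67.9, 68.8 and 68.2 CPM against 81.1, 99.7 and 83.2 CPM, where the C13 values were close together. Rela, the p65 subunit, had 3.38, 12.4 and 21.8 nascent CPM against 124, 119 and 111 CPM, a difference of -3.23 (SE 1.04), and -3.99 without C13 sham replicate 3. Its total RNA overlapped, with 107, 141 and 116 CPM against 159, 100.0 and 144 CPM.

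Brd3, a gene of the BET family of chromatin readers, was higher with C13 in nascent RNA. It had 1026, 748 and 1242 nascent CPM with C13 against 272, 617 and 378 CPM with DMSO. The groups did not overlap, and the difference of 1.25 (SE 0.53) did not pass the test (edgeR adjusted p = 0.675). In total RNA Brd3 overlapped, with 276, 313 and 340.0 CPM against 239, 347 and 251 CPM. Over the 21 tested of 22 listed BET and pause-release genes 2 lay above and 1 below in nascent RNA (9.52% and 4.76%, against 5.13% and 9.14% of all genes). The nascent median was 0.32, and -0.036 without C13 sham replicate 3. Of 17 genes for MOK and related kinases, 13 were tested in total RNA, with none above and 3 below (23.1%, against 5.72% of all genes). Among those below was Cdk7, the kinase of general transcription factor TFIIH, with 16.5, 12.5 and 19.7 CPM against 25.0, 23.5 and 39.5 CPM. Tardbp, which encodes TDP-43 itself, was lower in every C13 library, with 761, 738 and 706 total CPM against 927, 763 and 1038 CPM and 659, 779 and 157 nascent CPM against 1395, 844 and 948 CPM.

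Targets of NRF2, the factor of the oxidative stress response, were split. Of 26 listed genes 22 were tested in nascent RNA, with 4 above (Ftl1, Sqstm1, Srxn1 and Taldo1), 3 below (Abcc1, Cat and Osgin1) and a median of 0.067. These are 18.2% above and 13.6% below, against 5.13% and 9.14% of all genes. The median was -0.28 without C13 sham replicate 2 and 0.15 without C13 sham replicate 3. Ftl1, Sqstm1, Taldo1 and Abcc1 are named for these counts after their values were seen. Srxn1, the enzyme that repairs oxidised peroxiredoxins, had 531, 671 and 563 nascent CPM against 374, 266 and 282 CPM, with 0.94 (SE 0.45) in sham cells and 0.94 (SE 0.46) with TDP-43, where its libraries also lay apart. Hmox1, heme oxygenase 1, had 1484, 2805 and 871 nascent CPM against 526, 784 and 1142 CPM, and C13 sham replicate 3 lay within the DMSO range. Its difference was 1.07 (SE 0.48), or 1.29 without that library, and 1.11 (SE 0.48) with TDP-43. In total RNA Hmox1 had 639.8, 876 and 271 CPM against 299, 592 and 313 CPM. Cat, the gene of catalase, had 8.45, 12.4 and 17.9 nascent CPM against 77.5, 80.8 and 179.6 CPM and 80.3, 116 and 105 total CPM against 70.5, 71.3 and 56.0 CPM, apart in opposite directions. In total RNA 25 of the list were tested, with 1 above (Cat) and 3 below (Gsta3, Me1 and Txnrd1), or 4.00% and 12%, against 4.41% and 5.72% of all genes. Txnrd1, thioredoxin reductase 1, had 256, 206 and 149 CPM against 279.5, 292 and 263 CPM.

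Of 19 tested ATF4 targets, 3 lay above in nascent RNA (Atf4, Phgdh and Sesn2) and 1 below (Wars), which is 15.8% and 5.26%, against 5.13% and 9.14% of all genes. Atf4, the factor of the integrated stress response, had 622, 646 and 960.2 nascent CPM against 368, 322 and 396 CPM, all above. Gdf15, a stress-induced cytokine and ATF4 target, had 1180.0, 1975 and 3547 nascent CPM against 602, 499.8 and 1449 CPM, with overlap in 1 library of each group, and 65.5, 102 and 100.4 total CPM against 43.7, 69.1 and 61.8 CPM. The nascent median of the list was 0.56, and -0.043 without C13 sham replicate 3. Of 15 immediate-early genes tested in nascent RNA 1 lay above (Jun) and none below, or 6.67% and 0%, against 5.13% and 9.14% of all genes. Their nascent median was 0.79, and -0.38 without C13 sham replicate 3. In total RNA 1 of 22 lay above (Fosl2) and 1 below (Jund), or 4.55% each, against 4.41% and 5.72% of all genes. Jund, a subunit of AP-1, lay below in total RNA, with 90.0, 78.9 and 110.0 CPM against 135, 169 and 136 CPM. Of 18 genes tested for feedback on the kinase ERK, 3 lay above in total RNA (Dusp5, Spred1 and Spry2) and 2 below (Dusp1 and Spred3). These are 16.7% and 11.1%, against 4.41% and 5.72% of all genes. Their median was 0.27, and -0.08 without C13 sham replicate 3. Dusp1, the phosphatase that switches off MAP kinases, had no total read with C13 and 1.81, 1.38 and 0.233 CPM with DMSO, whose mean was 30.7 times the floor. Of the heat shock chaperones 20 were tested in each table, with medians of -0.22 in total and -0.66 in nascent RNA. With each library left out in turn these ran from -0.35 to -0.094 and from -1.04 to -0.40, with -1.04 in nascent RNA without C13 sham replicate 3. In nascent RNA 3 chaperone genes lay below (Bag3, Hsf1 and Hspe1) and 1 above (Ahsa1), or 15.0% and 5.00%, against 9.14% and 5.13% of all genes. Ahsa1, a cochaperone of Hsp90, had 186, 274 and 252 CPM against 73.4, 112 and 77.4 CPM. In total RNA Hspa4 lay below (5.00%, against 5.72% of all genes) and none above. Phgdh, Sesn2, Wars, Jun, Fosl2, Dusp5, Spred1, Spry2, Spred3, Bag3, Hsf1 and Hspe1 are named for these counts after their values were seen.

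Each of the 27 microglial and macrophage markers had a read in at least 1 of the 6 libraries. Sall1 was read in a single C13 library and Siglech in a single DMSO library, both under 0.1 CPM, and Tmem119 and Gpr34 were at 0 in some libraries of each group. The summed total level of the list ran from 3580 to 4585 CPM with C13 and from 3852 to 4173 CPM with DMSO. Of 20 disease-associated genes, 2 lay below in total RNA and none above, or 10.0% and 0%, against 5.72% and 4.41% of all genes. Gpnmb, a lysosomal membrane glycoprotein, had 4331, 4517 and 2967 CPM with C13 against 6107, 4807 and 5117 CPM. The tetraspanin Cd9 had 127, 45.7 and 129.7 CPM against 187, 144 and 437 CPM, where the highest DMSO value was far from the other DMSO values. For Gpnmb the difference was -0.44 (SE 0.18) in sham cells, -0.26 without C13 sham replicate 3, and 0.44 (SE 0.18) with TDP-43. Of 35 lysosomal genes tested in total RNA none lay apart, with a median of -0.033 (0.036 without C13 sham replicate 3). Markers of other cell types were low or absent, apart from Aldoc of the astrocyte list and Kdr of the fibroblast and endothelial list. Of 13 neuronal markers 7 had no read, and the sum was at most 1.01 CPM with C13 and 4.17 CPM with DMSO. Gfap, Gja1 and Aldh1l1 of the astrocyte list were at 0. The list summed to between 172 and 257 CPM with C13 and between 194 and 226 CPM with DMSO. Nearly all of that sum was Aldoc, with 229, 256 and 171 CPM against 226, 203 and 194 CPM. Of 11 oligodendrocyte markers 5 were at 0, with sums of 22 to 32.5 CPM against 18.8 to 37.3 CPM. Of 11 fibroblast and endothelial markers 8 were at 0, with sums of 122 to 149 CPM against 116 to 144 CPM. Nearly all of these sums was Kdr, with 149, 121 and 121 CPM against 144, 115 and 135 CPM.

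Long noncoding transcripts had mostly lower values with C13 in total RNA. Over 747 tested long noncoding and unverified transcripts the median was -0.30. Without overlap 17 lay above (2.28%) and 86 below (11.5%), against 4.41% and 5.72% of all genes. For 89 of them a group had no read, and without those 89 the median was -0.16. Over 10917 protein-coding genes 492 lay above (4.51%) and 579 below (5.30%), with a median of -0.0025. Antisense transcripts had a median of -0.65 (164 tested, 2 above and 22 below, or 1.22% and 13.4%). Long intergenic ones had -0.35 (179 tested, 5 above and 18 below, or 2.79% and 10.1%). Over the transcripts read in both groups these medians were -0.35 and -0.27. These classes are low in level and the C13 libraries detected fewer genes, so they were set beside coding genes of the same mean level. At a mean of at most 1 CPM the medians were -0.53 for noncoding and -0.48 for coding genes, with 12.8% and 6.58% below. Over the genes of this band read in both groups each of these medians was -0.16. From 1 to 10 CPM the medians were -0.17 over 257 noncoding and 0.053 over 2788 coding genes, with 8.95% and 5.42% below. Above 10 CPM they were -0.16 over 60 noncoding and -0.0029 over 7202 coding genes, with 13.3% and 5.1% below. Without C13 sham replicate 3 the median of the long noncoding class was -0.24, with 51 above and 116 below. The counts over all genes without that library are given above. In the TDP-43 arm the median of this class was 0.23, with 52 of the 747 above and 27 below. Over all genes 6.97% lay above and 6.48% below there, so the share above was near that of all genes. In nascent RNA the median was 0.19 over 90 transcripts, with 3 above and 6 below. These are 3.33% and 6.67%, against 5.13% and 9.14% of all genes. Whether depth has a part in this was not tested beyond the level bands.

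**Figure D4:**
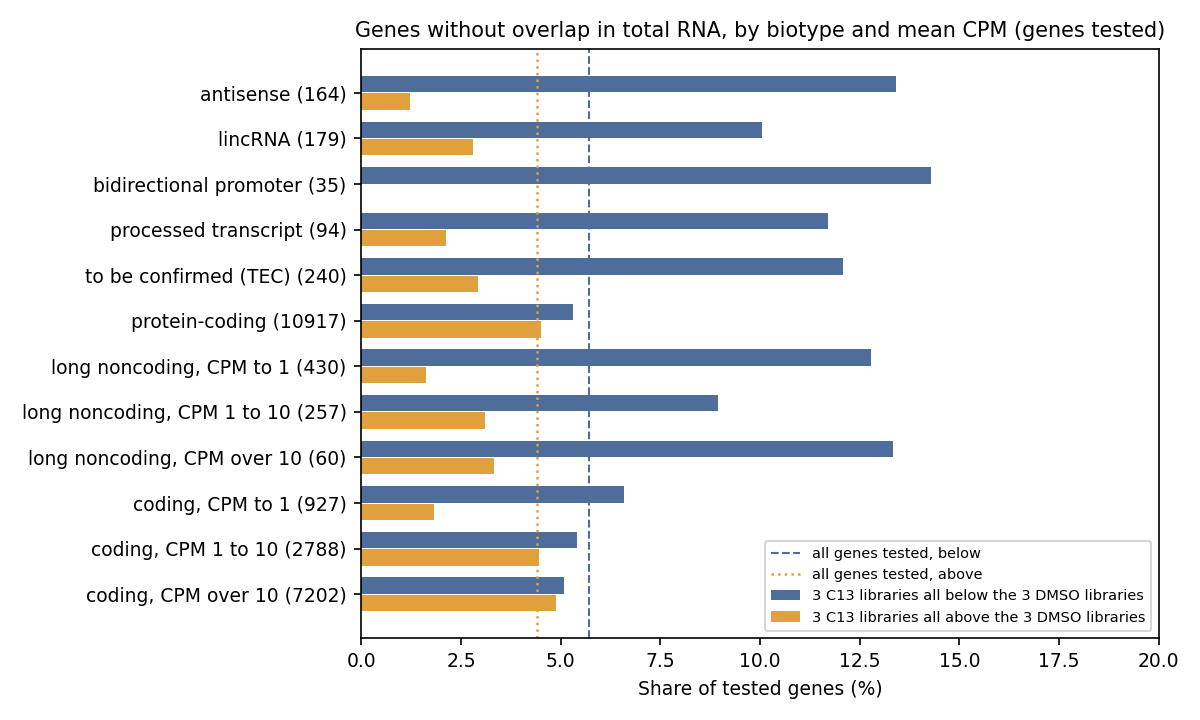
Share of tested genes (horizontal, percent) whose 3 C13 libraries lay all below or all above the 3 DMSO libraries in total RNA, by transcript class and mean level, with the shares over all genes as lines (5.72% below, 4.41% above). The bars for all below exceed that line in each long noncoding class and band drawn, and among coding genes in the band of at most 1 CPM (6.58%). Sense intronic transcripts are not drawn (32 tested, 3.125% below).

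Of 21 listed host genes of small nucleolar RNAs and nuclear long noncoding RNAs, 8 were found by symbol in the annotation used for the tables, and all 8 were tested in total RNA. Of these 2 were above 0, where 49.2% of all genes were above 0, and the median was -1.13. Without overlap 3 lay below and none above (37.5% below, against 5.72% of all genes and 11.5% of the long noncoding class). Snhg1 (chr19:8723475-8726443, plus strand), which carries several small nucleolar RNAs in its introns, had 71.1, 56.7 and 40.0 CPM against 134, 76.2 and 146 CPM, a difference of -1.09 (SE 0.30). Its nascent level was 60.9, 92.0 and 0 CPM against 263, 118 and 303 CPM, also without overlap. Zfas1 had 43.9, 40.0 and 8.59 CPM against 65.8, 46.2 and 96.3 CPM, and its difference of -1.17 (SE 0.45) stood beside 1.24 (SE 0.45) in the TDP-43 arm. The lowest Zfas1 value was that of C13 sham replicate 3, and without it the difference was -0.72. The third, Snhg12, was lower at a level of few CPM. Gas5, a host gene of the same kind, overlapped at 372, 472 and 154 CPM against 310.0, 517 and 225 CPM. Snhg12 and Gas5 were chosen for mention after their values were seen. The median of the list was -0.80 without C13 sham replicate 3, -0.59 without DMSO sham replicate 1 and 0.29 in the TDP-43 arm.

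Cytosolic ribosomal protein genes, whose messages begin with a shared pyrimidine tract, did not lie apart in total RNA. Of 79 tested, 0 lay above and 0 below, with a median of 0.0049, and 0.27 without C13 sham replicate 3. In nascent RNA the median was -0.33, and -0.16 without that library. There 77 were tested, with 3 above (Rpl37a, Rpl7 and Rpl8) and 7 below. These are 3.90% and 9.09%, against 5.13% and 9.14% of all genes. Genes of cholesterol synthesis had a nascent median of 0.44 over 21 tested, with 3 above (Cyp51, Fdps and Srebf2; 14.3%, against 5.13% of all genes) and none below. The nascent median ran from 0.17 to 0.77 with each library left out in turn, and the total median was -0.03. Cyp51, the lanosterol demethylase, had 987, 856 and 1666 nascent CPM against 669, 457 and 594 CPM. The cell cycle lists had total medians near that of all genes, at -0.0028 for 31 replication genes and 0.05 for 28 mitotic genes. Without C13 sham replicate 3 these were -0.13 and -0.05. Their nascent medians were -0.43 and -0.043, and -0.39 and -0.14 without that library. In total RNA proteasome subunits had -0.057 over 33 genes, and genes of glycolysis 0.023 over 18. Without that library these were 0.031 and 0.022. Atp5o, Ndufs3, Gsta3, Rpl37a, Rpl7, Rpl8 and Fdps are named for their place in the counts of their lists, after their values were seen.

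**Figure D5:**
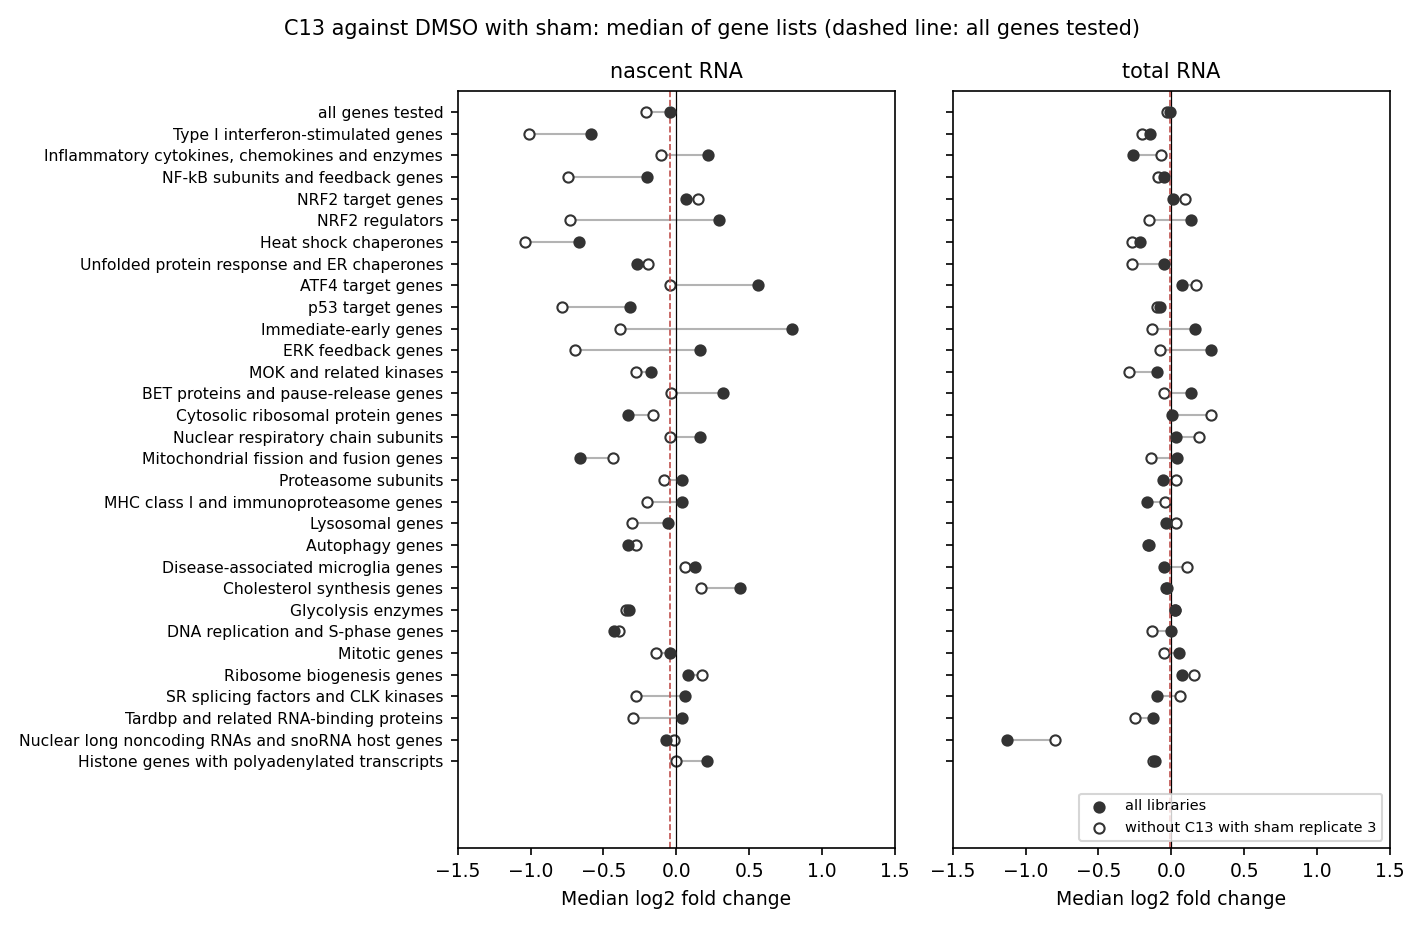
Median log2 difference of C13 over DMSO (horizontal) of the gene lists in nascent and total RNA, with all 6 libraries as filled points and without C13 sham replicate 3 as open points. The nascent interferon-stimulated list lies at -0.59 and -1.01, but was at -0.016 without DMSO sham replicate 3, which is not drawn. In nascent RNA the immediate-early list goes from 0.79 to -0.38.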

How the data were processed

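Reads of 12 libraries were given in 2 tables of 30994 genes, of which 6 libraries are compared here. The authors deposited whole-number read counts per gene for nascent and for total RNA, not normalized, and no nascent count exceeded its total count. Per the submitters' processing notes the reads belong to the mouse build GRCm38. Not given in the sources used here are the aligner, the counter, the gene annotation, the strand of counting and how many base changes made a read count as nascent. In total RNA, 1917 of 9932 genes with a mean above 50 reads had counts that shared a common factor of 2 or more over all 24 values, so reads may not be independent molecules and counting error is understated for them.

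Each table was scaled by itself with TMM, and genes were kept by edgeR's filter on low counts (7078 nascent, 11827 total). The nascent TMM factor was 0.646 for C13 sham replicate 3 and 0.979 to 1.13 for the other sham libraries. A lower factor raises all nascent CPM of that library. C13 was compared with DMSO in edgeR 4.0.16 (R 4.3.3, limma 3.58.1) with the quasi-likelihood test over all 12 libraries in 4 groups, with Benjamini-Hochberg adjustment at 0.05. CPM are counts per 1000000 reads of the TMM-scaled library size. The SE is the log2 difference divided by the square root of the test's F. Floors for groups at 0 are 3 reads over the group, and cover counting error only. Folds over a floor use the DMSO mean, so they are not minima over the DMSO libraries. Depth per library is given with the results, and the lower nascent depth leaves those values less precise. On simulated counts, the total table recovered 21.2% of 2-fold, 53% of 4-fold and 79% of 8-fold changes, with 8 false calls among 11507 genes tested. The nascent table recovered 0% of 2-fold, 1% of 4-fold and 22% of 8-fold changes, with 0.5 false calls on average among 6608 genes tested. Changes were set only in some genes above a minimum mean count, so these rates do not hold for genes of low counts. No simulated library was made to stand apart as C13 sham replicate 3 did. With no change simulated neither table gave a call.

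The comparison, its 36 gene lists and the named genes were chosen with earlier results of these data known. Per table, the named genes were the 6 higher and 6 lower genes with the smallest p among those without overlap whose higher group averaged 20 or more reads, up to 4 genes of each list with the smallest p, and genes fixed by name. Replicate numbers were not used as pairs. Alternatives were other normalizations, no filter, the replicate block, only the 6 libraries, DESeq2 1.42.0, voom weights, the library sizes of the total table, and leaving out each library. Promoter sequences come from RefSeq on GRCm38.p6, and gene positions from an annotation of the same build.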

Additional observations from a re-analysis of the deposited data

How the results depend on the processing

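The count of 0 called genes in edgeR held in both tables with DESeq2's size factors, with voom weights, with only the 6 libraries and, for nascent RNA, with the library sizes of the total table. Without a filter on low counts 29 nascent and 59 total genes were called, and the DESeq2 test called 29 and 41, and 48 and 108 for the difference between arms. These settings differ in the genes tested or in how the spread is estimated, and the cause was not tested. Leaving out each library in turn gave 0 to 0 nascent and 0 to 2 total calls, and for the difference between arms 0 to 1 nascent and 0 to 3 total calls. The difference in nascent share ran from -2.61 to -0.430 percentage points. With the replicate number as a block, 0 genes were called in nascent and 0 in total RNA. Same-numbered libraries deviated from their group means with correlations of 0.0029, -0.0278 and 0.0318 in nascent and 0.0165, 0.0511 and 0.102 in total RNA. Not every library correlated best with its own number, though in total RNA all same-numbered correlations were above 0. These small values cannot show whether the numbers pair the libraries. Among the named genes 12 values changed sign, and 18 passed the edgeR test under an alternative setting. With the library sizes of the total table nascent Atf4 was at -0.0077, Cyp51 at -0.030 and Tnf at -0.55, since that scaling moves the median of all nascent genes from -0.044 to -1.02. With each library left out in turn nascent Tnf ran from -0.29 to 0.62, with -0.056 without C13 sham replicate 2 and -0.10 without C13 sham replicate 3, and it was at -0.076 without both libraries that stood apart. Total Gas5 ran from -0.42 to 0.32, with 0.28 without C13 sham replicate 3, and was at 0.26 without both libraries that stood apart. Total Mok ran from -1.72 to 2.30 and was at -0.0044 with the replicate block. The counts of genes without overlap and the list medians without C13 sham replicate 3 were added after seeing the data. Depth limits nascent RNA most, where no C13 library held more than 786491 reads.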
